A study of Mus musculus with 24 samples.

Results

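The miR-30 family of microRNAs (miRNAs) was followed across the mouse liver lobule, between the central vein and the portal tract. Its members were taken by name from the array, as 10 of the 1881 mouse miRNAs measured. The 5 guide arms were mmu-miR-30a-5p, mmu-miR-30b-5p, mmu-miR-30c-5p, mmu-miR-30d-5p and mmu-miR-30e-5p, and the 5 passenger arms were mmu-miR-30a-3p, mmu-miR-30c-1-3p, mmu-miR-30c-2-3p, mmu-miR-30d-3p and mmu-miR-30e-3p. The prefix mmu, for mouse, is left out from here on. Hepatocytes of 3 untreated male C57BL/6J mice aged 3 months, fed freely under an inverted light cycle, were sorted by the surface proteins CD73 and E-cadherin into 8 populations. Zone 1 was the most pericentral population (highest CD73) and zone 8 the most periportal one (highest E-cadherin). All populations shared the same gates: living tetraploid cells with neither CD45, a leukocyte protein, nor CD31, an endothelial one. Each population of 50000 cells gave 1 array, so there were 24 arrays, with 3 for each zone and 8 for each mouse. Ploidy was fixed by the sort, so hepatocytes of other ploidy were not measured.

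A miRNA is cut from a hairpin precursor with 2 arms. The guide arm is loaded into an Argonaute protein and directs it to mRNAs that pair with the seed, a short stretch near the guide's 5′ end, while the passenger arm is usually discarded. The miR-30 guides share 1 seed and are abundant in liver. miR-30c is known in mice to lower lipoprotein secretion through the mRNA of Mttp, the triglyceride transfer protein, and miR-30a is known to target the mRNA of Beclin 1, an autophagy protein.

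The mature sequences show which members can share targets and how little some of them differ. RefSeq sequences on GRCm38.p6 were matched for 7 of the 10 members. They are written 5′ to 3′, with the seed (bases 2 to 8) in capitals.
miR-30a-5p: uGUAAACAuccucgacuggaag
miR-30c-5p: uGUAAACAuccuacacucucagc
miR-30e-5p: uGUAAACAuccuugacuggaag
miR-30a-3p: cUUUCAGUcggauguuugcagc
miR-30e-3p: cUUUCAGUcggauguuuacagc
miR-30c-1-3p: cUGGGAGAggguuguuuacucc
miR-30c-2-3p: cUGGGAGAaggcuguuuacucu
These 3 guides shared the seed GUAAACA, the miR-30a and miR-30e passengers shared UUUCAGU, and both miR-30c passengers shared UGGGAGA. Counted from 1 at the 5′ end, miR-30e-5p differed from miR-30a-5p by C13U alone, and miR-30e-3p from miR-30a-3p by G18A alone. miR-30c-2-3p differed from miR-30c-1-3p by G9A, U12C and C22U. How far the probes on the array tell such close sequences apart was not tested.

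The family comes from 6 genes in 3 neighbouring pairs. Mir30a and Mir30c-2 lie on chromosome 1 with 19361 bases between them, overlapping no protein-coding gene. miR-30a-5p is at chr1:23272274-23272295 and miR-30a-3p at chr1:23272315-23272336, both on the plus strand. miR-30c-2-3p is at chr1:23291754-23291775 on the plus strand. Mir30c-1 and Mir30e lie on chromosome 4 within Nfyc, the gene of a subunit of the transcription factor NF-Y, with 2983 bases between them. miR-30c-1-3p is at chr4:120769546-120769567, miR-30e-5p at chr4:120772660-120772681 and miR-30e-3p at chr4:120772618-120772639, all on the minus strand. Mir30b and Mir30d lie on chromosome 15 with 3697 bases between them, overlapping no protein-coding gene. The guide miR-30c-5p is identical in Mir30c-1 and Mir30c-2 (chr4:120769584-120769606 on the minus strand and chr1:23291714-23291736 on the plus strand), so its signal sums both genes, whereas each passenger comes from 1 of them. Both hairpins are shown because they share a guide and differ in their passengers, with both arms in capitals.
Mir30c-1: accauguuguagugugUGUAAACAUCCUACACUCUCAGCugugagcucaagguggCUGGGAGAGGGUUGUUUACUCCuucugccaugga
Mir30c-2: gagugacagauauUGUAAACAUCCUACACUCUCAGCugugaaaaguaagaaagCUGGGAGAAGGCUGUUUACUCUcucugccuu

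Between 248 and 368 miRNAs were called detected on an array, and the summed signal lay between 57773 and 138147 intensity units. All 5 hepatocyte marker miRNAs were detected on every array, while 0 of 6 leukocyte, 0 of 5 stellate cell and 0 of 2 erythroid markers were detected on any. Of 3 endothelial markers 1 was detected on some arrays, with a summed signal of 0 to 11.4 in zones 5 to 8 and 0 to 11.0 in zones 1 to 4, and of 5 biliary markers 1 was detected on 1 array. Each mouse had a slide of its own, and on every slide zones 1 to 4 lay in row 1 and zones 5 to 8 in row 2. Zone and slide row therefore cannot be told apart where zones 5 to 8 are set against zones 1 to 4. The 5 control sequences detected on all arrays differed by -0.31 to 0.02 log2 units between row 2 and row 1, with a median of -0.10.

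Of the 10 members, 7 were detected on all 24 arrays. miR-30c-2-3p was detected on 22 arrays, among them all 12 periportal ones (zones 5 to 8) and 10 of the 12 pericentral ones (zones 1 to 4). miR-30c-1-3p was detected on 20, with 9 of 12 periportal and 11 of 12 pericentral arrays. miR-30d-3p was detected on 0 of 24 arrays and was not tested. The other rows of the array with this family name, miR-30b-3p and miR-30f, were also detected on 0 arrays. The files also hold an error for each signal. Its median size relative to the signal was 6.38% for miR-30a-5p and 8.71% for miR-30a-3p, against 23.8% for miR-30c-1-3p and 21.2% for miR-30c-2-3p.

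The first question was which members change along the axis. Most of the family was higher towards the portal tract, led by both arms of miR-30a and by miR-30c-2-3p, and no member was called lower on the zone slope. Of the 9 members tested 5 rose and 0 fell (limma adjusted p below 0.05), where 10.3% of the 339 miRNAs tested rose and 6.49% fell. The 5 were 3 of the 5 guides (miR-30a-5p, miR-30c-5p and miR-30e-5p) and 2 of the 4 passengers tested (miR-30a-3p and miR-30c-2-3p). With the mouse as a block 7 rose and 0 fell, where 14.5% of all rose and 16.5% fell, and the 2 added were miR-30b-5p and miR-30e-3p. These slopes span both slide rows, and with the row as a term beside the mouse block 0 of 9 passed, where 0% of all did. The median slope was 0.0750 log2 units per zone over the 9 members and -0.0142 over all miRNAs tested. Signals are per array and from many cells, so more miRNA in each cell and more cells holding it cannot be told apart.

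**Figure D1:**
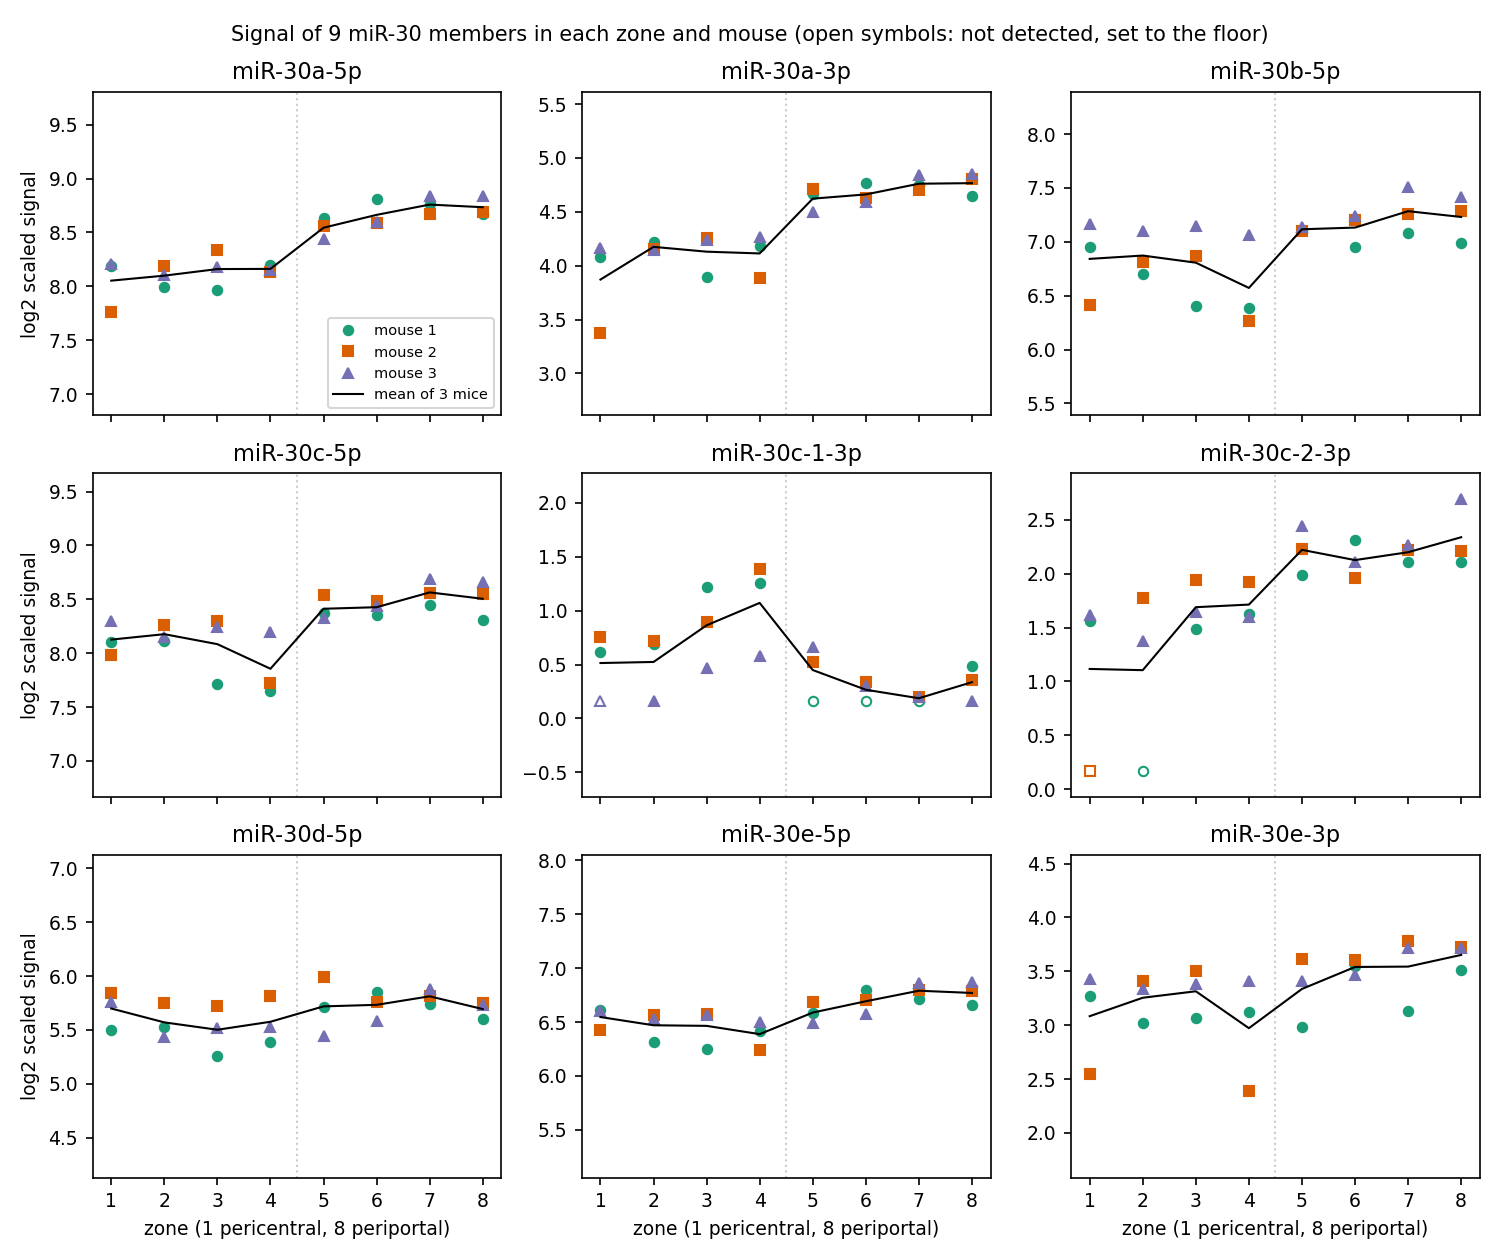
Log2 scaled signal of the 9 tested miR-30 members (vertical axis, with the same span in each panel) against zone, from 1 (pericentral) to 8 (periportal); symbols are the 3 mice, the line is their mean, the dotted line marks the change of slide row, and open symbols are arrays where the miRNA was not detected and was set to the floor. Both miR-30a arms sit higher on every array of zones 5 to 8 than on any of zones 1 to 4, miR-30d-5p is nearly flat, and miR-30c-1-3p has its highest mean, 1.07, in zone 4.

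Among the guides, miR-30a-5p had the largest fitted change with the scaling used here, while with quantile normalization its slope was 0.0711 per zone (limma adjusted p = 9.53e-05), below the 0.0751 of miR-30b-5p. Its scaled signal, in intensity units after scaling arrays to each other, was 409, 412 and 458 in zone 8 of mice 1, 2 and 3, against 292, 218 and 295 in zone 1. Every zone 8 array was above every zone 1 array, and the lowest of the 6 was zone 1 of mouse 2. The difference was 0.68 ± 0.14 log2 units (SE), or 1.60-fold (limma adjusted p = 0.00497). Zone means in order from zone 1 to zone 8 were 268, 275, 288, 286, 374, 407, 434 and 426, with an SD between 6.89 and 43.7 (n = 3 each). The means stay close together over the first 4 zones and lie at a higher level over the last 4. Over zones 5 to 8 the lowest, median and highest arrays were 348, 409 and 459, against 218, 288 and 324 over zones 1 to 4, with no overlap. The fitted change over the axis, the slope on the zone number taken over the whole axis, was 0.83 ± 0.11 log2 units (SE, limma adjusted p = 3.23e-06). Its slopes in mice 1, 2 and 3 were 0.122, 0.119 and 0.115 per zone, the most even of the family. With 1 slope taken per mouse as the only data, miR-30c-2-3p was the 1 member to pass (limma adjusted p = 0.0202), where 3.54% of all miRNAs rose, and miR-30a-5p had an adjusted p of 0.0638.

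miR-30c-5p, the guide known for its action on lipoprotein secretion, had the same direction with a smaller change. Its scaled signal was 316, 375 and 404 in zone 8 of mice 1, 2 and 3, against 275, 253 and 314 in zone 1. All 3 zone 8 values lay above those of zone 1, though the lowest of zone 8 exceeded the highest of zone 1 only slightly. The difference of 0.38 ± 0.18 log2 units did not pass (limma adjusted p = 0.279). Over zones 5 to 8 the lowest, median and highest arrays were 316, 354 and 412, against 201, 281 and 315 over zones 1 to 4, again with no overlap. The lowest zone mean was 235 ± 50.4 in zone 4 and the highest 379 ± 31.8 in zone 7 (SD, n = 3 each). Zone 4 was the lowest of all zones in mice 1 and 2 but not in mouse 3, where zone 2 was. The fitted change was 0.51 ± 0.15 (limma adjusted p = 0.0196). This call was lost without mouse 2 (adjusted p = 0.0736), without mouse 3 (0.117), and without zone 6, 7 or 8. With quantile normalization the slope was 0.00966 per zone (adjusted p = 0.791).

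miR-30e-5p, which differs from miR-30a-5p by a single base, rose with a smaller fitted change. Its scaled signal was 101, 110 and 117 in zone 8 of mice 1, 2 and 3, against 97.6, 86.2 and 97.0 in zone 1. Its highest zone 1 array lay just under its lowest zone 8 array, and over zones 5 to 8 (90.0 to 117) and zones 1 to 4 (75.6 to 97.6) the arrays overlapped. The fitted change was 0.34 ± 0.10 log2 units (limma adjusted p = 0.0260), and the call was lost when any of the 3 mice was left out, with adjusted p of 0.104, 0.0564 and 0.109 without mice 1, 2 and 3. Leaving out zone 2, 3, 6, 7 or 8 also ended it, as did the fits without scaling (adjusted p = 0.0830) and without 1 of 3 single arrays (zone 2 of mouse 1, zone 8 of mouse 2 or zone 8 of mouse 3). The difference between zone 8 and zone 1 was 0.22 ± 0.14 (limma adjusted p = 0.432).

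miR-30b-5p and miR-30d-5p, from neighbouring genes on chromosome 15, did not pass the slope test. miR-30b-5p had scaled signals of 127, 156 and 171 in zone 8 of mice 1, 2 and 3, against 124, 85.0 and 143 in zone 1, so the groups overlapped. Mouse 3 was the highest in both zones. The fitted change was 0.53 ± 0.18 log2 units (limma adjusted p = 0.0510), and it passed with the mouse as a block (0.0116). It also passed without zone 4, and without zone 1, 4 or 8 of mouse 1, zone 4 of mouse 2, or zone 1, 2 or 3 of mouse 3. Leaving out any other zone or array, or any mouse, did not make it pass (limma adjusted p up to 0.166, 0.119 and 0.310). Of the other scalings, it passed with the summed signal (0.000653) and quantiles (0.0340), and did not without scaling (0.109). miR-30d-5p had 48.6, 53.8 and 53.1 in zone 8 of mice 1, 2 and 3, against 45.2, 57.4 and 54.0 in zone 1. In mice 2 and 3 zone 8 was the lower of the pair. The difference was -0.01 ± 0.17 log2 units with a 95% interval of -0.37 to 0.35, and the fitted change was 0.17 ± 0.12 (limma adjusted p = 0.393). It was also the 1 member of the 9 whose slope differed in sign between mice, at 0.0469, -0.000854 and 0.0257 in mice 1, 2 and 3.

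Among the passengers, miR-30a-3p followed its guide. Its scaled signal was 25.0, 27.9 and 28.9 in zone 8 of mice 1, 2 and 3, against 16.9, 10.3 and 17.9 in zone 1. The groups did not overlap, and as for the guide, zone 1 of mouse 2 was lowest. The difference was 0.89 ± 0.18 log2 units, or 1.86-fold (limma adjusted p = 0.00341), and the fitted change was 0.94 ± 0.14 (adjusted p = 1.65e-05). Over zones 5 to 8 the lowest, median and highest arrays were 22.6, 26.1 and 28.9, against 10.3, 17.9 and 19.2 over zones 1 to 4. The miR-30e passenger, miR-30e-3p, had 11.4, 13.2 and 13.2 in zone 8 of mice 1, 2 and 3, against 9.67, 5.84 and 10.8 in zone 1. Its zone 8 arrays lay above those of zone 1, but its arrays of zones 5 to 8 (7.91 to 13.8) and of zones 1 to 4 (5.22 to 11.3) overlapped. The fitted change was 0.54 ± 0.20 log2 units (limma adjusted p = 0.0589, and 0.0313 with the mouse as a block). It also passed without zone 4, zone 7 of mouse 1, zone 4 of mouse 2 or zone 1 of mouse 3. Leaving out any other zone or array, or any mouse, did not make it pass (limma adjusted p up to 0.263, 0.164 and 0.199).

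The passengers of miR-30c had fitted changes of opposite sign. With the slide row as a term beside the mouse block both slopes were positive. They were 0.0799 per zone for miR-30c-1-3p and 0.140 for miR-30c-2-3p, and neither passed (limma adjusted p = 0.570 and 0.496). Within zones 1 to 4 both were also positive (0.201 and 0.238), and within zones 5 to 8 they had opposite signs (-0.0417 and 0.0425). miR-30c-2-3p had scaled signals of 4.32, 4.62 and 6.49 in zone 8 of mice 1, 2 and 3, against 2.96 and 3.07 in zone 1 of mice 1 and 3, and was not detected in zone 1 of mouse 2. Its 12 arrays of zones 5 to 8 lay between 3.88 and 6.49 with a median of 4.64, above all 12 of zones 1 to 4, which lay between the floor of 1.12 and 3.85 with a median of 3.04. The fitted change was 1.32 ± 0.26 log2 units, the largest of the family (limma adjusted p = 0.000664), with slopes of 0.195, 0.201 and 0.170 per zone in mice 1, 2 and 3. The difference between zone 8 and zone 1 was 1.22 ± 0.36 (limma adjusted p = 0.0555, and 0.0410 with the mouse as a block). It also passed without 1 of 4 single arrays, that of zone 1 or 2 of mouse 1, zone 2 of mouse 2 or zone 1 of mouse 3. Leaving out any other array, or any mouse, did not make it pass (limma adjusted p up to 0.275 and 0.365). Since 2 of its pericentral arrays stand at the floor, the size of these changes depends on where the floor is set.

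miR-30c-1-3p had its highest mean in zone 4 and lower means on both sides. Its zone means from zone 1 to zone 8 were 1.45, 1.46, 1.86, 2.16, 1.38, 1.20, 1.14 and 1.27 scaled units (n = 3 each), all close to the floor of 1.12. In zone 4 it had 2.39, 2.61 and 1.49 in mice 1, 2 and 3, and in mouse 3 zone 5 was a little higher, at 1.58. In zone 8 it had 1.40 and 1.28 in mice 1 and 2 and lay at the floor in mouse 3, against 1.54 and 1.69 in zone 1 of mice 1 and 2, with no detection in mouse 3. The fitted change of -0.45 ± 0.22 log2 units did not pass (limma adjusted p = 0.171), and the difference between zone 8 and zone 1 was -0.18 ± 0.24 (adjusted p = 0.775). That difference turned to 0.11 without scaling, to 0.03 with scaling to the summed signal and to 0.44 with a floor 4 times lower, none of which passed.

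**Figure D2:**
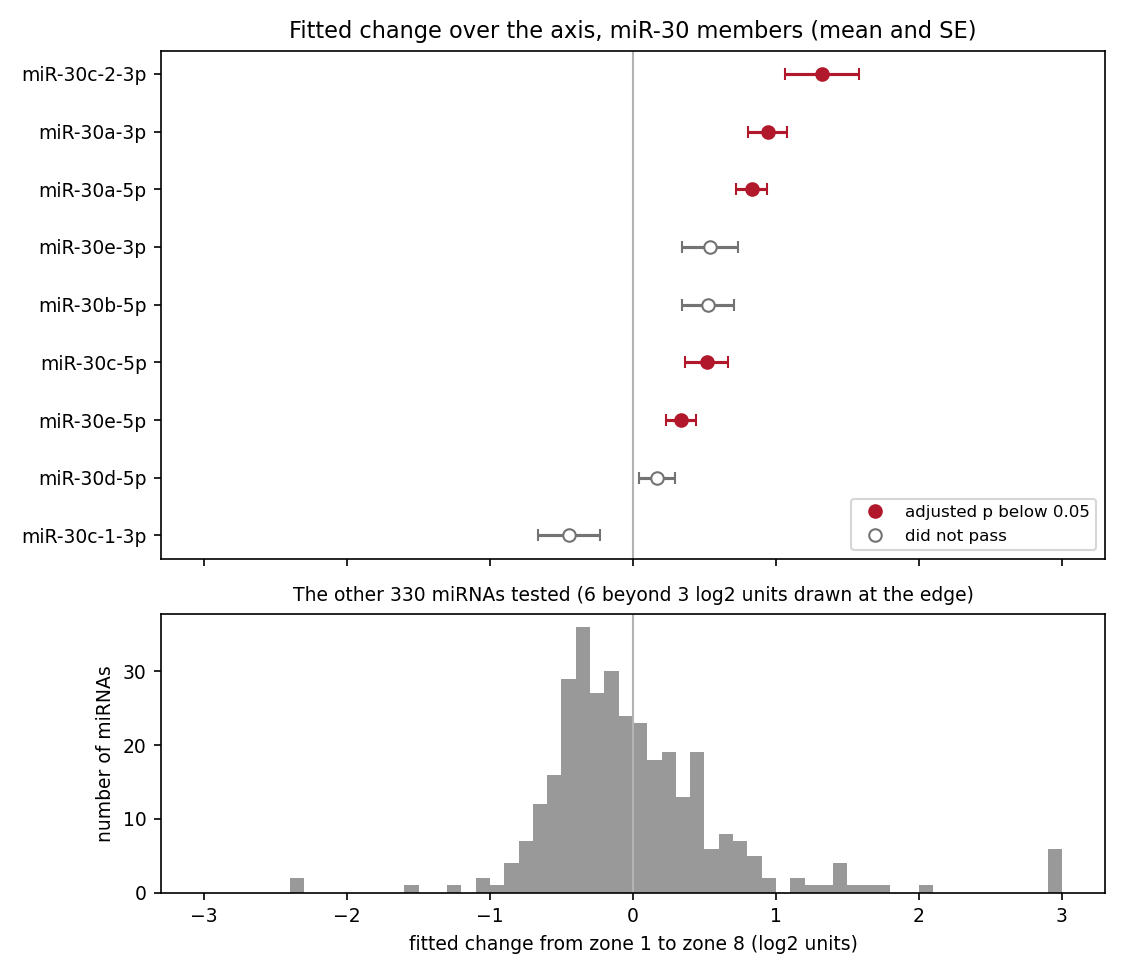
The top panel gives the fitted change from zone 1 to zone 8 in log2 units for each tested miR-30 member, with its SE, filled where the limma adjusted p was below 0.05 and open where it was not; the bottom panel is a histogram of the same measure for the other 330 miRNAs, on the same horizontal axis. The members run from -0.45 for miR-30c-1-3p to 1.32 for miR-30c-2-3p, with 8 of the 9 above 0.

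The ends of the axis alone gave fewer calls. In zone 8 against zone 1, 2 of 9 members were higher, miR-30a-5p and miR-30a-3p, and 0 were lower, where 4.72% of all miRNAs tested were higher and 0.59% lower (limma). With the mouse as a block miR-30c-2-3p was the third to pass, where 7.67% of all were higher and 2.06% lower. The median difference was 0.39 log2 units over the 9 members and -0.01 over all miRNAs tested. Without mouse 3 the count was 0, with limma adjusted p of 0.102 for miR-30a-5p and 0.0509 for miR-30a-3p, and without mouse 1 it was 1, miR-30a-3p. A moderated F test for differences of any shape among the 8 zones called the same pair, miR-30a-5p (limma adjusted p = 0.00274) and miR-30a-3p (0.00704), where 5.31% of all miRNAs were called. With the mouse as a block miR-30c-5p was added, where 9.14% of all were called. The F test called 0 members without mouse 1 or without scaling, and without mouse 3 it called miR-30c-1-3p alone (limma adjusted p = 0.0459).

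The periportal zones 5 to 8 were then compared with the pericentral zones 1 to 4, with 12 arrays each. Of the 9 members 6 were higher and 1 was lower, where 10.3% of all miRNAs tested were higher and 5.9% lower (limma adjusted p below 0.05). The 6 were miR-30a-5p, with a difference of 0.56 ± 0.07 log2 units (SE, adjusted p = 1.30e-05), miR-30a-3p with 0.63 ± 0.09, miR-30c-2-3p with 0.82 ± 0.18, miR-30c-5p and miR-30b-5p with 0.42 each and SEs of 0.09 and 0.12, and miR-30e-5p with 0.24 ± 0.07. The lower one was miR-30c-1-3p, with -0.43 ± 0.12 (limma adjusted p = 0.0153). Its differences in mice 1, 2 and 3 were -0.70, -0.59 and -0.01, so mouse 3 hardly showed it, and the call was lost without mouse 1 or mouse 2. The remaining members were miR-30e-3p, with 0.36 ± 0.13 (limma adjusted p = 0.0808, and 0.0425 with the mouse as a block), and miR-30d-5p, with 0.15 ± 0.09 (0.254). The arrays of zones 5 to 8 lay wholly above those of zones 1 to 4 for 4 of 9 members, both miR-30a arms, miR-30c-5p and miR-30c-2-3p, where 4.13% of all miRNAs tested did so. The gap was narrow for miR-30c-5p (316 above 315) and miR-30c-2-3p (3.88 above 3.85), whose signals had median errors of 8.06% and 21.2%.

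Several of these calls rested on single mice or on the floor. The call of miR-30b-5p was lost without mouse 1 (limma adjusted p = 0.137) or mouse 2 (0.275), that of miR-30c-2-3p without mouse 3 (0.0820), and that of miR-30e-5p whichever mouse was left out. Leaving out zone 4, 7 or 8 ended the calls of miR-30b-5p and miR-30e-5p, and leaving out zone 4, 6 or 7 that of miR-30c-1-3p. miR-30e-3p passed without zone 7 of mouse 1 or zone 4 of mouse 3. It did not pass with any other array, any mouse or any zone left out (limma adjusted p up to 0.404). With a floor 4 times lower miR-30c-2-3p had an adjusted p of 0.0619 and miR-30c-1-3p of 0.212. Both miR-30a arms and miR-30c-5p kept the call when any 1 mouse was left out, and miR-30c-5p had an adjusted p of 0.471 with quantile normalization, which also brought the difference of miR-30a-5p to 0.31 (adjusted p = 0.000595), against 0.40 for miR-30b-5p. Without scaling the calls of miR-30b-5p (0.140), miR-30c-5p (0.0519) and miR-30e-5p (0.210) were lost.

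**Figure D3:**
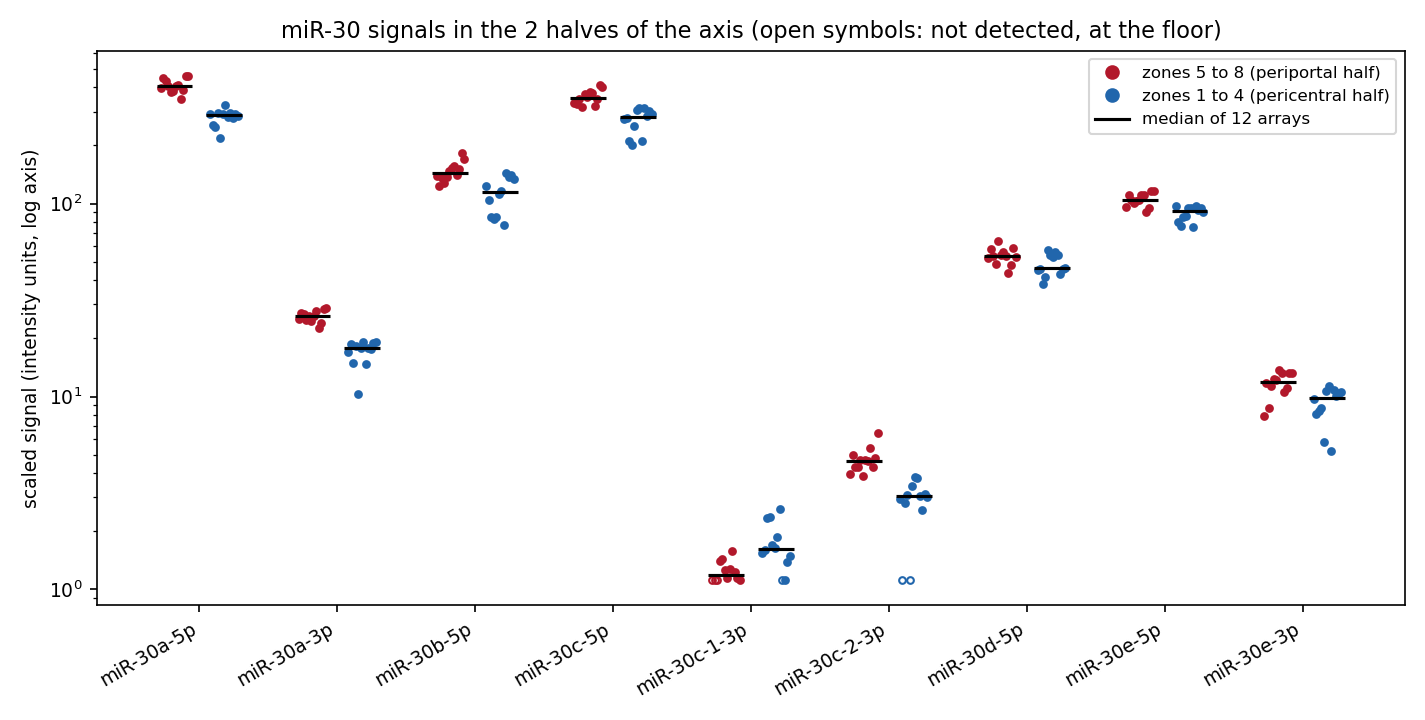
Scaled signal on a log axis, in intensity units, of each tested miR-30 member on the 12 arrays of zones 5 to 8 (red, left) and the 12 of zones 1 to 4 (blue, right), with the median as a bar and undetected arrays as open symbols at the floor. The colours separate without overlap for both miR-30a arms, miR-30c-5p and miR-30c-2-3p; heights of different miRNAs are not comparable, since signal per molecule differs between probes.

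Neighbouring zones were then compared by their 3 arrays each. From zone 4 to zone 5 the median difference over the 9 members was 0.38 log2 units, and for 5 of 9 members the 3 zone 5 arrays lay above the 3 zone 4 arrays, where 6.78% of all miRNAs tested did so and 1.47% lay below. The 5 were miR-30c-5p, higher by 0.56 log2 units, miR-30b-5p by 0.54, miR-30a-3p and miR-30c-2-3p by 0.51 each, and miR-30a-5p by 0.38. For the other 6 pairs of neighbouring zones 0 of 9 members lay without overlap above or below the zone before, where 0.59% to 5.60% of all miRNAs tested lay above and 0% to 4.72% below. The median differences of the members in these pairs ran from -0.02 to 0.10. The step falls where the slide row changes.

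**Figure D4:**
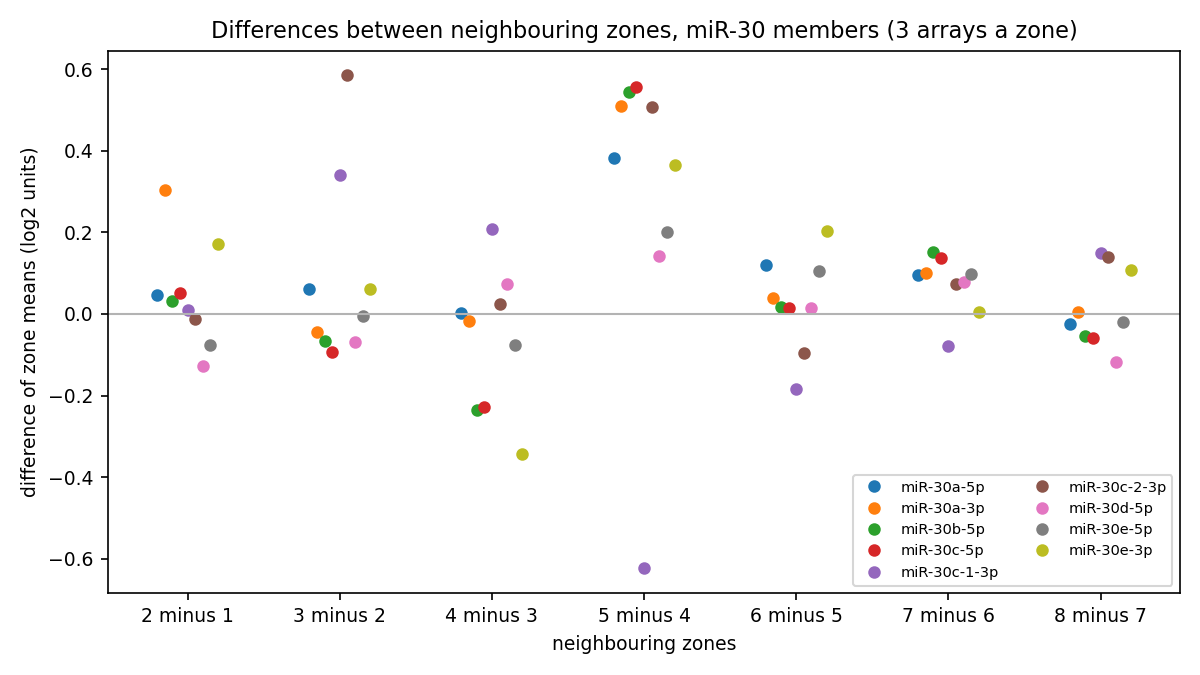
Difference of zone means in log2 units between each zone and the one before it (3 arrays a zone), with 1 coloured point for each tested miR-30 member. At zone 5 minus zone 4, 8 of the 9 points lie above 0, from 0.14 for miR-30d-5p to 0.56 for miR-30c-5p, while miR-30c-1-3p lies at -0.62.

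Slopes within a slide row were taken with the mouse as a block. Within zones 5 to 8, 8 of 9 members had slopes above 0 and 0 passed, with a lowest limma adjusted p of 0.388, where 0% of all miRNAs rose and 0% fell. At an unadjusted p under 0.05 the count was also 0. Within zones 1 to 4, 4 of 9 were above 0 and 1 passed, where 1.77% of all rose and 0.295% fell. The 1 was miR-30c-1-3p, which rose by 0.20 ± 0.04 log2 units per zone (limma adjusted p = 0.0278). Its signal lay near the floor, and in mouse 3 it was not detected in zone 1 and set to the floor in zone 2. Other floors, other scalings and leaving out mice were not tried for this slope. With the slide row as a term beside the mouse block 0 of 9 passed (lowest limma adjusted p = 0.496), and 0% of all miRNAs did.

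Members were compared with each other through their slopes in each mouse, over the 21 pairs of the 7 members detected on all arrays. For 13 of the 21 pairs the difference had the same sign in all 3 mice. These differences are given as values in each mouse, with no test. miR-30a-5p was steeper than miR-30e-5p, its neighbour in sequence, by 0.0727, 0.0660 and 0.0722 log2 units per zone in mice 1, 2 and 3. These values made it the most even of the differences, with a mean of 0.0703 ± 0.00373 (SD, n = 3). miR-30a-5p was also steeper than miR-30d-5p, by 0.0746, 0.120 and 0.0890, and than miR-30c-5p, by 0.0534, 0.0378 and 0.0438. miR-30b-5p and miR-30c-5p had mean slopes that differed by 0.00150 with unlike signs among the mice. In order of slope the tested members were miR-30c-2-3p, miR-30a-3p, miR-30a-5p, miR-30e-3p, miR-30b-5p, miR-30c-5p, miR-30e-5p, miR-30d-5p and miR-30c-1-3p, at ranks 16, 21, 27, 49, 50, 52, 82, 110 and 278 of 339. Among the 7 in that list compared by pairs, the neighbours in order did not differ with the same sign in every mouse, except miR-30c-5p over miR-30e-5p and miR-30e-5p over miR-30d-5p.

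The level of single members varied between mice, which was not tested. Since each mouse had a slide of its own, mouse and slide cannot be told apart here. Over its 8 arrays mouse 3 had a geometric mean of 149 scaled units of miR-30b-5p, against 120 in mouse 2 and 113 in mouse 1. For miR-30d-5p mouse 2 was highest, with 56.0, against 47.6 in mouse 1 and 48.8 in mouse 3. For miR-30a-5p the 3 mice lay close together, at 339, 330 and 343 in mice 1, 2 and 3.

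The arms of 1 precursor were compared through the difference of their log2 signals, 3p minus 5p, whose slope shows whether they change unequally. Both arms were detected on all 24 arrays for 11 precursors, miR-30a and miR-30e among them. For miR-30a this difference changed by 0.11 ± 0.08 log2 units over the axis (95% interval -0.06 to 0.28), and for miR-30e by 0.20 ± 0.15 (-0.10 to 0.50), each with a limma adjusted p of 0.299. Neither passed, and 0% of the 11 did in either direction. At an unadjusted p under 0.05 neither miR-30 pair passed, with p of 0.190 for miR-30a and 0.181 for miR-30e. With quantile normalization the miR-30a difference passed, at 0.0819 per zone (adjusted p = 0.00622).

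The miR-30c precursors share their guide, whose signal sums both genes. Each passenger was therefore set against the summed guide, and not against the guide of its own gene. Both arm differences use the same guide values, so what separates them is the passenger signals. Unlike output of the genes, unlike use of their arms and the slide row cannot be told apart here. Both passengers also lay near the floor, and how far their probes tell them apart was not tested. Over the 33 precursors with both arms on at least 6 arrays, miR-30c-2-3p minus miR-30c-5p changed by 0.81 ± 0.27 log2 units over the axis (95% interval 0.25 to 1.37, limma adjusted p = 0.0370). miR-30c-1-3p minus miR-30c-5p changed by -0.96 ± 0.34 (95% interval -1.66 to -0.26, adjusted p = 0.0417). These were 1 higher and 1 lower call, where 6.06% of the 33 were higher and 18.2% lower. All 3 mice had the same sign in each, with slopes of 0.127, 0.119 and 0.0992 per zone for miR-30c-2 and of -0.161, -0.177 and -0.0740 for miR-30c-1 in mice 1, 2 and 3. The slope of miR-30c-2-3p exceeded that of miR-30c-1-3p by 0.288, 0.296 and 0.173 per zone, a mean of 0.252 ± 0.0686 (SD, n = 3). Both calls were lost whichever mouse was left out, with limma adjusted p of 0.0934 to 0.175 for miR-30c-2 and of 0.0975 to 0.209 for miR-30c-1, and both were lost with a floor 4 times lower (0.107 and 0.332). With quantile normalization that of miR-30c-1 was lost (0.138).

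**Figure D5:**
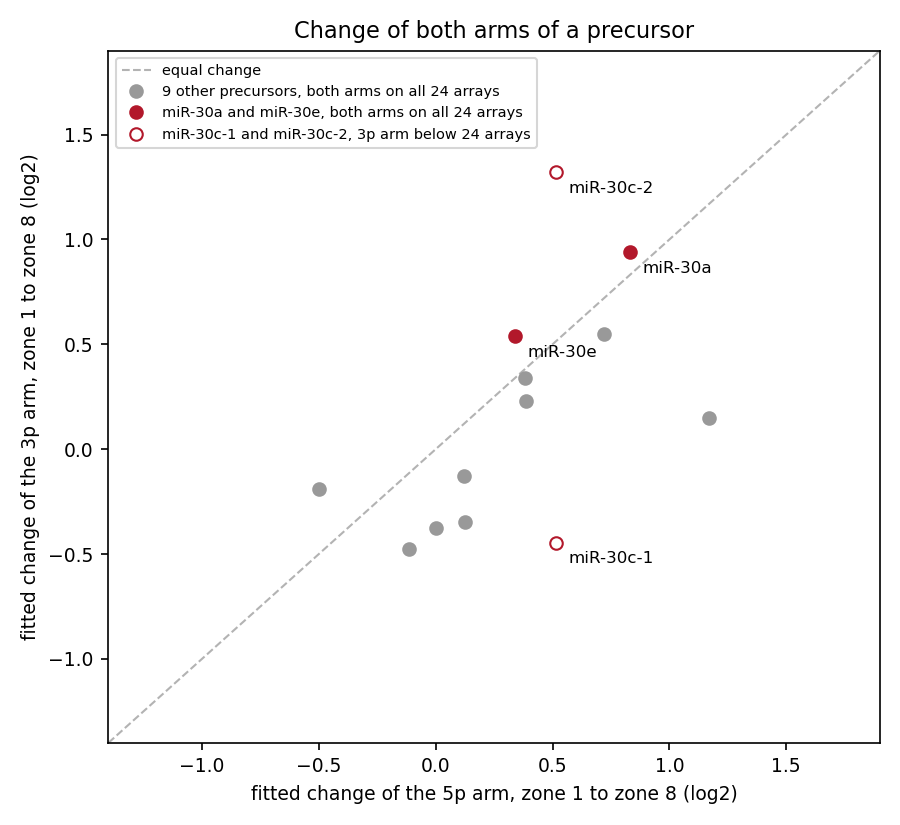
Fitted change of the 3p arm (vertical axis) against that of the 5p arm (horizontal axis) from zone 1 to zone 8, both in log2 units, for 11 precursors with both arms on all 24 arrays (filled) and for miR-30c-1 and miR-30c-2 (open); the dashed line is equal change. miR-30a and miR-30e lie near the line. miR-30c-1 and miR-30c-2 share 1 guide signal, summed over both genes, with a change of 0.51, and lie on opposite sides of the line.

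Across the 24 arrays, which share mice, slides and scaling, the 7 members detected on all of them had Pearson correlations of log2 signal between 0.168 and 0.950, with a median of 0.777 over the 21 pairs. The highest was between both arms of miR-30a (0.950), followed by that of miR-30b-5p with miR-30c-5p (0.919), which come from different chromosomes. The lowest was that of miR-30d-5p with miR-30e-3p (0.168). miR-30b-5p and miR-30d-5p, whose genes are neighbours, had 0.284, and the arms of miR-30e had 0.789. With each mouse's mean removed, miR-30b-5p with miR-30c-5p was highest (0.956), just above the arms of miR-30a (0.953). miR-30d-5p with miR-30e-3p stayed lowest (0.207), and miR-30b-5p with miR-30d-5p had 0.494.

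Among the other 191 miRNAs detected on all arrays, those whose profile over the 24 arrays was most like the mean of the 7 members were miR-26a-5p (r = 0.928), miR-99a-5p (0.923), miR-221-3p (0.921), miR-148a-3p (0.893) and miR-122-5p (0.879), the last being the dominant miRNA of hepatocytes. The least like were miR-7011-5p (-0.874), miR-7036a-5p (-0.844) and miR-6769b-5p (-0.828), and the median over the 191 was -0.0862. In a list of 10 other miRNAs abundant in hepatocytes, chosen with results of these data known, 5 rose and 0 fell (limma). Of all miRNAs tested 10.3% rose and 6.49% fell. The median slope of the list was 0.0717 log2 units per zone, against 0.0750 over the 9 miR-30 members.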

How the data were processed

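Per the labels' protocols, total RNA was given a Cy3 label before Agilent 1-colour miRNA arrays were hybridised. The authors deposited 1 linear intensity for each miRNA and array, its total gene signal. The submitters' processing notes name Agilent Feature Extraction, and its version is not stated here. The deposited detection call is 1 or 0, per the file headers, and undetected miRNAs hold a signal of 0.1. The headers record no scaling of arrays to each other.

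Here signals of the 1881 miRNAs, without 21 control sequences, were scaled so that the 75th percentile of the 198 miRNAs with detection on every array was equal between arrays. A floor of 1.12 scaled units was set, the median of the arrays' lowest detected signals after scaling, before log2 was taken. A miRNA needed detection on 6 of the 24 arrays to enter the fits, which left 339. These were tested with limma 3.58.1 in R 4.3.3 (lmFit, eBayes, two-sided, Benjamini-Hochberg, threshold 0.05) for the slope on zone number, zone 8 minus zone 1, zones 5 to 8 minus zones 1 to 4, and a moderated F test over zones. The arm difference was tested over precursors. All arrays entered 1 fit without a block. The mouse number pairs arrays, since equal numbers mark 1 animal. Deviations from zone means correlated within mice, each on a slide of its own, with a median r of 0.610 (lowest 0.254). Alternatives were the mouse as a block, 3 scalings, 2 detection filters, a lower floor, eBayes with trend and robust, slide row, 1 slope per mouse, and leaving out mice, arrays or zones. The number of mice, 3, limits the precision, and not only the number of arrays.

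The members and marker lists were chosen with earlier results of these data known. Members were all named, and other miRNAs were named by the 5 highest and 3 lowest correlations with the members' mean profile. Fits were tested on simulated data. Sequences came from a RefSeq table on GRCm38.p6. Plots were made in Python 3.11.15 with matplotlib 3.10.9.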

Additional observations from a re-analysis of the deposited data

How the results depend on the processing

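Against 5 rising members, 0 rose with the slide row beside the mouse block, 0 within zones 5 to 8, 1 within zones 1 to 4 (miR-30c-1-3p) and 1 with 1 slope per mouse (miR-30c-2-3p, limma adjusted p = 0.0202, where 3.54% of all rose). With that row term the slopes of miR-30b-5p, miR-30c-5p and miR-30d-5p turned to -0.0190, -0.0245 and -0.0217 per zone. That of miR-30c-1-3p turned to 0.0799. Within zones 1 to 4 the slopes of miR-30b-5p, miR-30c-5p and miR-30d-5p turned to -0.0875, -0.0904 and -0.0438. Those of miR-30e-5p and miR-30e-3p turned to -0.0482 and -0.0274, and that of miR-30c-1-3p to 0.201. The cause was not tested beyond zone and row sharing their layout. Chosen after seeing the data were leaving out single arrays or zones and, for the arm difference, the slide row and every alternative at 6 arrays other than the lower floor. Leaving out data gave 3 to 4 rising members without a mouse (3 without mouse 2 or mouse 3), 4 to 7 without an array and 3 to 7 without a zone (3 without zone 6, 7 or 8). Zone 8 against zone 1 had 4 members higher with the summed signal, 0 to 2 without a mouse (0 without mouse 3, 1 without mouse 1) and 2 to 3 without an array. Zones 5 to 8 against zones 1 to 4 had 3 members higher without scaling, 4 whichever mouse was left out, 6 to 7 without an array and 4 to 6 without a zone. The 1 lower member, miR-30c-1-3p, did not pass (0) under any of the 3 other scalings or with the lower floor, was not tested with the filter at 24 arrays (0), and gave 0 to 1 without a mouse or zone (0 without mouse 1 or 2, or zone 4, 6 or 7) and 1 whichever array was left out. The F test called 0 members without scaling and 0 to 2 without a mouse. In the arm difference, the miR-30c passengers were set against a guide signal summed over both genes. At 6 arrays 1 miR-30 precursor was higher and 1 lower, with and without the block. There, 0 were higher and 0 lower with the lower floor or whichever mouse was left out, and 2 were higher and 0 lower with quantile normalization. Over the precursors on all 24 arrays 1 was higher with quantile normalization and 0 differed without a mouse. Pairing by mouse changed the calls of miR-30b-5p and miR-30e-3p on the slope (7 rising), miR-30c-2-3p at the ends (3 higher), miR-30e-3p between zones 5 to 8 and zones 1 to 4 (7 higher) and miR-30c-5p in the F test (adjusted p = 0.0240), and no other. The scalings moved the median fitted change of all miRNAs from -0.10 to 0.10 unscaled, 0.04 with the summed signal and -0.07 by quantiles, with 5, 4, 7 and 5 members rising. Member counts under other scalings, filters, floors or left-out data stand without the share of all miRNAs called. They show which calls hold, and not whether the members stand out from all miRNAs. Signals of both miR-30c passengers lay near the floor, which limits their order.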
